A study of Mus musculus with 6 samples.

Results

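The α-defensin (Defa) genes encode the most abundant antimicrobial peptides of Paneth cells (PCs), the secretory cells that sit deep in the crypts of the small intestine and store these peptides in large granules. The family was taken as every row of the deposited count table whose Ensembl identifier carries a mouse gene symbol that begins with Defa in GENCODE release M39. This rule found 45 of 55414 rows, of which 28 are protein-coding genes and 17 are pseudogenes. PCs had been purified with a cell sorter from the small intestine of C57BL/6J mice, 15 h after injection of tumour necrosis factor (TNF) or, as the control, of phosphate-buffered saline (PBS). There were 3 PBS and 3 TNF libraries, each labelled as a separate replicate. All 6 libraries, controls included, carry the genotype label IFNAR1 KO, a knockout of a subunit of the receptor for type I interferons, so the comparison covers TNF in that background only. The labels give neither the dose of TNF nor the region of the small intestine, the sex or the age of the mice, and no statement that replicates came from separate animals beyond their numbering, so that p-values measure the spread between these libraries.

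An α-defensin is made as a longer precursor that is stored in the secretory granule. In mice the matrix metalloproteinase Mmp7 cuts the precursor and frees the mature peptide, which is released into the crypt lumen and kills bacteria, mainly by disturbing their membranes. Classical α-defensins, long called cryptdins, fold around 6 cysteines that form disulfide bonds. Mice also have a branch of cryptdin-related sequence (CRS) peptides, which share the start of the precursor but carry a different, cysteine-rich mature part. In PCs, transcription of these genes depends on Wnt signalling through β-catenin and the factor Tcf7l2, also called TCF4.

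The last coding exon of each gene encodes the mature peptide, and it separates the classical members from the CRS branch. It is given for the 5 members with the largest share of the family, from the mouse assembly GRCm39, 5′ to 3′ on the coding strand, with in-frame cysteine codons (TGC or TGT) in capitals. Defa24 (chr8:22225284-22225390), Defa30 (chr8:21625410-21625516) and Defa22 (chr8:21653062-21653168) lie on the plus strand, while Defa38 (chr8:21585093-21585268) and Defa39 (chr8:22192647-22192822) lie on the minus strand.
Defa24: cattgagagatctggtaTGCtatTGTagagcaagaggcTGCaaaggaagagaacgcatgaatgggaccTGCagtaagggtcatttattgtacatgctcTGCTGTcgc
Defa30: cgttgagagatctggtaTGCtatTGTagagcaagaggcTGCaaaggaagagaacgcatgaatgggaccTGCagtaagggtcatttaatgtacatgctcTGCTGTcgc
Defa22: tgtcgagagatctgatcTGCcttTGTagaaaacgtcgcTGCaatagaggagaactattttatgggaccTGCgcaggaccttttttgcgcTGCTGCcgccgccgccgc
Defa38: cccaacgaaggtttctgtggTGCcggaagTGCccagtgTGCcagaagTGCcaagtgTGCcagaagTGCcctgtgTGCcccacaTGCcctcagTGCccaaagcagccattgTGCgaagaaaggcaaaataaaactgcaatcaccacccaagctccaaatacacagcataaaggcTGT
Defa39: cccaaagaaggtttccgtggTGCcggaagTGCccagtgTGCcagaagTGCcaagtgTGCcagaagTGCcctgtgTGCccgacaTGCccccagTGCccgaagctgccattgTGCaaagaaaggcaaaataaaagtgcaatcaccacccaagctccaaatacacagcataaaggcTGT
The exons of Defa24, Defa30 and Defa22 hold 6 cysteine codons within 107 coding bases. Those of Defa38 and Defa39 hold 11 within 176 bases, most of them at a regular spacing. Defa29, Defa42 and Defa43 also have 11 cysteine codons, and these 5 genes, called CRS members here, are the protein-coding members on the minus strand. RefSeq lists CRS1C as a synonym of Defa29, Defa38 and Defa39.

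The exon is also given for 3 further protein-coding members, Defa40 (chr8:21740368-21740474), Defa26 (chr8:22108789-22108895) and Defa28 (chr8:22073775-22073880), all on the plus strand, because these and Defa39 are the protein-coding members that passed the test once 1 TNF library was left out.
Defa40: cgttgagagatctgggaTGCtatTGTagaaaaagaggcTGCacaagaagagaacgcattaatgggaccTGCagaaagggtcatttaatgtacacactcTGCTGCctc
Defa26: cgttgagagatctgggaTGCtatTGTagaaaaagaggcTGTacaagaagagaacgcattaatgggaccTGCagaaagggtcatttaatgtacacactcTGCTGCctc
Defa28: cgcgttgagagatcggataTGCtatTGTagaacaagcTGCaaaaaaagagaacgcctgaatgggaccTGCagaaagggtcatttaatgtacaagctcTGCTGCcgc
All 3 follow the classical pattern of 6 cysteine codons and resemble Defa24 along much of the exon. Over the whole coding sequence, Defa40 and Defa26 were 97.8% identical, Defa24 and Defa30 98.6%, and Defa22 and Defa21 99.3%, the last pair with 2 mismatches. Linking coding sequences at 97% identity or more gave 11 sequence groups. The Defa24 group has 6 members (Defa24, Defa30, Defa17, Defa3, Defa31 and Defa23) and the Defa35 group also 6 (Defa35, Defa41, Defa34, Defa5, Defa37 and Defa36). Defa38 with Defa29, Defa22 with Defa21, Defa40 with Defa26, and Defa42 with Defa43 form pairs, Defa2, Defa33, Defa20 and Defa32 form a group of 4, and Defa39, Defa28, Defa27 and Defa25 stand alone.

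In GRCm39, 41 of the 45 members lie between 21515557 and 22240016 on chromosome 8, a stretch of 724.5 kb, and the other 4, pseudogenes Defa-ps12 to Defa-ps15, lie nearer the start of the chromosome. Plus-strand members number 38. Because members resemble each other, the share of each transcript that a read could assign to it was computed. A 100-base window was called distinguishable when it occurred nowhere else in the genome or in transcripts of other genes of the table. All 323 windows of Defa24 were distinguishable, as were 99.7% for Defa30, 94.1% for Defa39, 82.1% for Defa38, 59.4% for Defa22 and 59.0% for Defa21. Defa40 and Defa26 had 99% and 98.9%. These shares depend on the window length. With 50-base windows they were 71.8% for Defa24, 51.2% for Defa30, 64.8% for Defa39 and 44.4% for Defa38. Defa22 and Defa21 then had 24.9% and 26.9%, and Defa40 and Defa26 59.5% and 59.8%. At the other end, 11 members had no distinguishable window, 10 of them protein coding, and together they held 0.00287% to 0.0113% of the family's counts per library. Every 100-base window of Defa31 also occurs in Defa23, every window of Defa37 in Defa36, and 98.5% of those of Defa42 in Defa43. Defa17 and Defa3 share 91.3% of their windows, so their counts are uncertain one by one. How reads that map to several places were treated is not given in the sources used here, and a low count of such a member is therefore not a measure of its RNA. Overlapping genes are a further limit, since 23 members overlap another annotated gene, among them Defa30, which overlaps Defa-ps4 on the same strand.

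**Figure D1:**
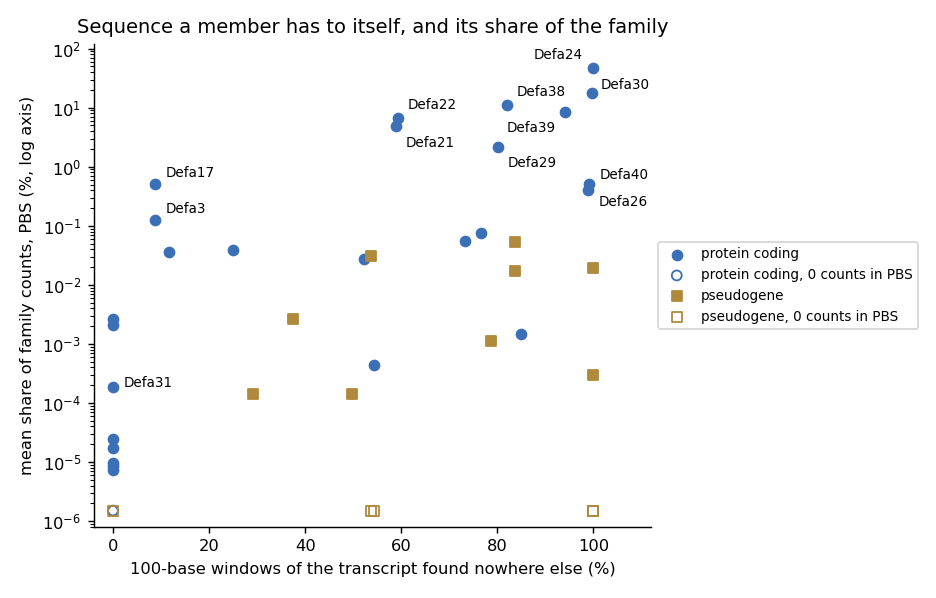
Mean share of the family's counts in the 3 PBS libraries (vertical log axis, %) against the share of a member's 100-base transcript windows that occur nowhere else (horizontal axis, %), 1 point per member; open symbols at the bottom had 0 counts in PBS. Defa24 sits at the upper right with 100% distinguishable windows, and the members without a distinguishable window line the left edge, the highest of them, Defa42, at 0.00263%.

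The libraries held 12747484 to 17039511 counts, so that a member with 0 counts in a library may have had up to 0.176 to 0.235 CPM (counts scaled to a common library total), if 3 counts are taken as the limit. Such limits and intervals cover counting error only. The PC label was checked on 5 markers outside the family (Lyz1, Mmp7, Ang4, Itln1 and Mptx2), which summed to 222577 to 270677 CPM in PBS, whereas TNF replicates 1 to 3 had 338616, 175155 and 277275 CPM. Enterocyte markers summed to 144 to 218 CPM in PBS, and to 149, 45.8 and 42.9 CPM in TNF replicates 1 to 3. Stem cell markers summed to 2511 to 3071 CPM in PBS and to 4628, 872 and 763 CPM in the TNF replicates. TNF replicate 1 stood apart from the other TNF libraries. Between replicates of a group, the chi-square statistic per degree of freedom over all genes was 27.7 to 51.1 in PBS and 76.2 for TNF replicates 2 and 3, but 322 and 210 for TNF replicate 1 against TNF replicates 2 and 3. Results are therefore given with and without that library. Ifnar1 was detected at 5.18 to 12.7 CPM over the 6 libraries, which does not check the knockout, since the deleted part of the gene is not given in the labels.

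The family supplied a large part of all counts in every library, with no difference between groups beyond their spread. In PBS it held 31.4%, 28.4% and 26.9% of the counts, and the TNF libraries had 36.8%, 19.9% and 25.96%. The TNF libraries held both the highest and the lowest value, so the groups overlapped. The means were 28.9% ± 2.31 in PBS and 27.6% ± 8.60 in TNF (SD, n = 3), a difference of -1.33 percentage points (two-sided exact permutation p = 0.8; 3 against 3 libraries cannot give a p below 0.1). When its members were added up, TNF over PBS gave a log2 fold change of 0.13 (SE 0.73) for the whole family, with an adjusted p of 0.958 in edgeR. Without TNF replicate 1 this value was -0.29 (SE 0.40, edgeR adjusted p = 0.687). In sorted bulk samples, fewer cells that express a gene and less RNA of it per cell cannot be told apart.

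**Figure D2:**
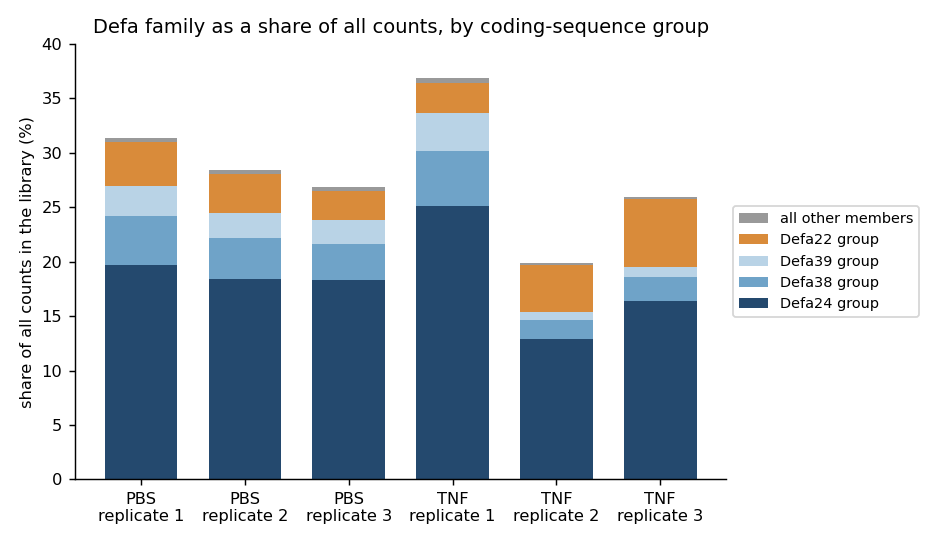
Share of all counts held by the Defa family in each library (vertical axis, %), split by coding-sequence group; the height of a bar is the whole family, from 19.9% in TNF replicate 2 to 36.8% in TNF replicate 1. The Defa22 group (orange) is widest in TNF replicates 2 and 3, and the Defa38 and Defa39 groups (light blues) are narrowest there.

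A few members supplied nearly all of these counts. By their mean share of the family in PBS, 5 members were classed as major (at least 5%), 2 as middle (1% to 5%), 19 as minor (below 1% but abundant enough to test) and 19 as scarce. The PBS values set these classes and are given as a description. Defa24 held 44.4%, 45.6% and 50.8% of the family's counts in PBS, and Defa30 17.6%, 18.6% and 16.98%. Together with Defa17, Defa3, Defa31 and Defa23, they made the Defa24 group 65.3% ± 2.81 of the family (SD, n = 3). Next came the CRS members Defa38, with 11.05% ± 0.678, and Defa39, with 8.50% ± 0.328. Defa22 had 6.75% ± 0.842, just inside the limit of the major class, and its near twin Defa21 had 4.98% ± 0.927, just outside it. Defa29, the third abundant CRS member, had 2.18% ± 0.464. The order changed little when counts were first divided by the length of the canonical transcript. Defa24 then had 46.7%, Defa30 17.3%, Defa38 13.2%, Defa39 7.05%, Defa22 6.78% and Defa21 4.97% of the family. These values rest on that choice of length. For Defa38 the canonical transcript has 351 bases, whereas all its annotated exons cover 595. Counting error was small, since the 95% Wilson half-width of these shares was at most 0.053 percentage points.

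All other members were far less abundant. The minor class summed to 1.91%, 1.92% and 1.91% of the family in PBS, led by Defa17 (0.510%), Defa40 (0.504%) and Defa26 (0.411%), and its lowest member, Defa25, had 0.000442%. The scarce class summed to under 0.001% in each PBS library. The 17 pseudogenes together held 0.118% to 0.129% in PBS, with Defa-ps6 the highest at 0.0532%. Of the 45 members, 8 had 0 counts in all libraries, namely 6 pseudogenes and the protein-coding Defa20 and Defa32, both without a distinguishable window. Thus 5 or 6 members held 90% of the family's counts in each library, and 8 or 9 held 99%.

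**Figure D3:**
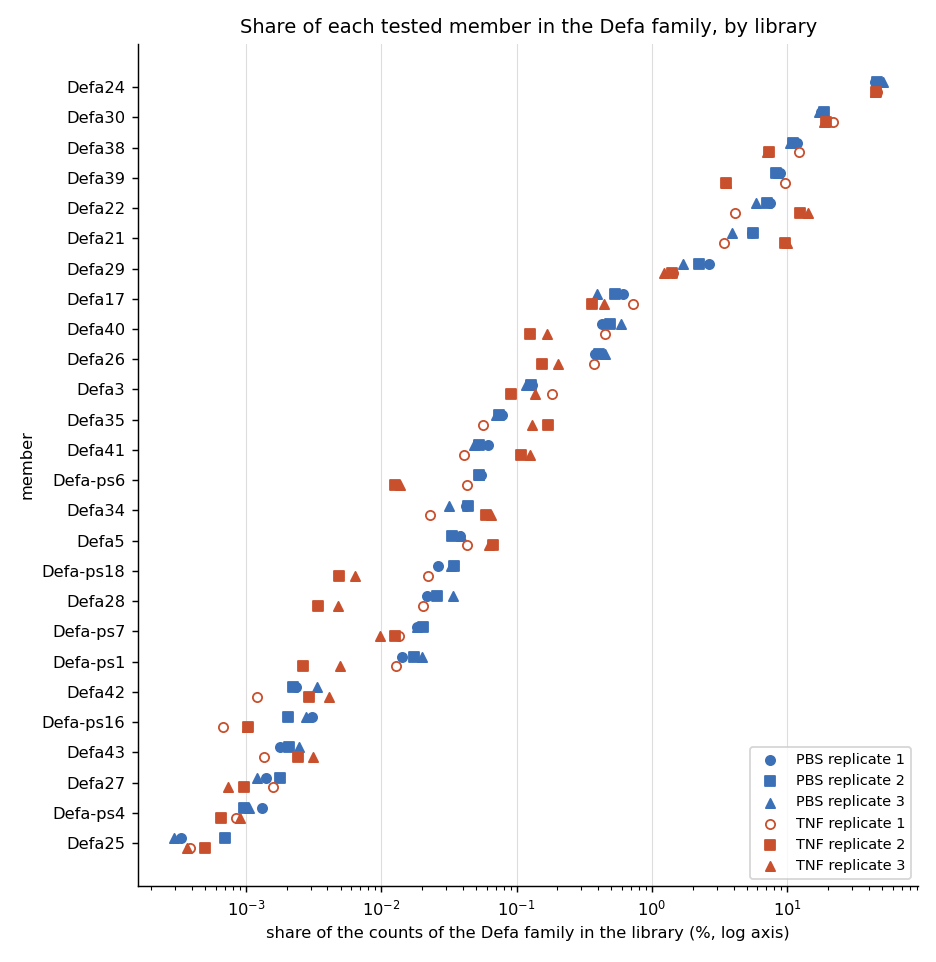
Share of the family's counts held by each of the 26 tested members (horizontal log axis, %), ordered by the PBS mean, with 1 point per library; filled blue symbols are PBS, filled red symbols TNF replicates 2 and 3, and open red circles TNF replicate 1. The PBS points lie close together for most members, and for Defa39, Defa40, Defa28 and several pseudogenes the filled red symbols lie to their left while the open circle lies near them.

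The groups overlapped in how evenly the family was used. The effective number of members, the inverse Simpson index of their shares, was 3.87, 3.71 and 3.23 in PBS and 3.55, 3.65 and 3.77 in TNF (means 3.60 ± 0.334 and 3.66 ± 0.111, n = 3, two-sided exact permutation p = 0.9). The class shares are given without a test, because the PBS values set the classes. The major class lay within 87.5% to 93.2% of the family in every library, with a difference between the group means (TNF minus PBS) of -1.42 points, and the middle class differed by 1.81 points. With classes set by the mean over all 6 libraries, which puts Defa21 in the major class, both directions turned, to 1.22 and -0.827 points.

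The next comparison asked which members differed between TNF and PBS. The fit over all 13026 genes that passed the low-count filter included 26 members, 20 protein coding and 6 pseudogenes, and left out the 19 scarce ones. With all 6 libraries, 0 members passed an adjusted p of 0.05 in edgeR, and 0% of all genes did. At an unadjusted p under 0.05 there were 2 members, Defa5 and Defa-ps16, and 1596 genes in all. Members divided evenly, with 13 higher and 13 lower in TNF, and their median log2 fold change was -0.03, against 0.00 over all genes. Defa5 had the highest value, 0.66 (SE 0.27, edgeR adjusted p = 0.387), and Defa-ps16 the lowest, -1.53 (SE 0.41, edgeR adjusted p = 0.278). Only 11.6% of the 100-base windows of Defa5 are distinguishable, and 0% of its 50-base windows. Since 75% of the 100-base windows of Defa34 also occur in Defa5, the counts of Defa5 alone are uncertain. DESeq2 called 1 member, Defa-ps16, as lower, and 1.71% of all genes, 1.43% as higher and 0.284% as lower.

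The groups did not overlap for 2 of the 26 members, against 16.9% of all genes tested (9.07% higher and 7.82% lower in TNF). One was Defa35, a classical member, at 255.8, 191 and 176 CPM in PBS, against 262, 280 and 369 CPM in TNF. Its TNF values were all higher, but the lowest of them exceeded the highest PBS value only slightly, and the fit gave 0.55 on the log2 scale (SE 0.26, edgeR adjusted p = 0.429). The other was the pseudogene Defa-ps16, at 10.1, 5.21 and 6.98 CPM in PBS, against 3.14, 1.71 and 2.90 CPM in TNF. All 3 TNF values lay below PBS, although only 37.5% of its 100-base windows are distinguishable.

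Among the major members, the spread of the TNF libraries exceeded any difference between groups. Defa24 was at 145462, 116844 and 127735 CPM in PBS and at 210590, 74931 and 125192 CPM in TNF. TNF replicate 1 was the highest of all libraries and TNF replicate 2 the lowest, and the log2 fold change was 0.07 (SE 0.68). Defa30 followed the same order, with 57740, 47658 and 42711 CPM in PBS, against 100413, 32133 and 52591 CPM in TNF. Defa39, of the CRS branch, was at 28924, 20938 and 21419 CPM in PBS and at 44424, 5794 and 10010 CPM in TNF. Here TNF replicates 2 and 3 both lay below every PBS library while TNF replicate 1 lay above them. Defa38 showed the same split, with 38538, 28230 and 26160 CPM in PBS, against 56481, 12055 and 20040 CPM in TNF. Defa22 went another way, at 24392, 17960 and 14622 CPM in PBS, against 18902, 20604 and 40549 CPM in TNF. Its TNF replicate 3 was the highest of the 6 libraries and the others overlapped with PBS.

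Shares within the family remove the total amount of α-defensin RNA from the comparison. The share of Defa24 stayed at 45.5%, 45.2% and 44.1% in TNF replicates 1 to 3, and that of Defa30 at 21.7%, 19.4% and 18.5%. Defa24 thus overlapped with PBS. Defa39 made up 8.82%, 8.17% and 8.52% of the family in PBS, 9.61% in TNF replicate 1, and 3.50% and 3.53% in TNF replicates 2 and 3. Defa22 made up 7.44%, 7.004% and 5.81% in PBS, 4.09% in TNF replicate 1, and 12.4% and 14.3% in TNF replicates 2 and 3. For both genes, TNF replicate 1 lay on the other side of the PBS range from the remaining TNF libraries. Per 100 counts of Defa39, there were 84.3, 85.8 and 68.3 counts of Defa22 in PBS, 42.6 in TNF replicate 1, and 356 and 405 in TNF replicates 2 and 3.

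Defa22 and Defa21 kept their proportion to each other. Per 100 counts of Defa21 there were 136, 127 and 149 counts of Defa22 in PBS and 121, 130 and 144 in TNF, although 40.6% of the windows of Defa22 also occur in Defa21. Summed, the Defa22 group held 12.9%, 12.5% and 9.72% of the family in PBS and 7.47%, 22.0% and 24.2% in TNF (exact permutation p = 0.4). The CRS members with 11 cysteine codons summed to 23.2%, 21.4% and 20.6% in PBS and 23.3%, 12.2% and 11.8% in TNF (exact permutation p = 0.4). TNF replicates 2 and 3 were below PBS, and TNF replicate 1 was level with PBS replicate 1. Within this branch, Defa39 was at 75.1, 74.2 and 81.9 counts per 100 counts of Defa38 in PBS, 78.7 in TNF replicate 1, and 48.1 and 49.95 in TNF replicates 2 and 3. The Defa24 group held 65.3% ± 2.81 in PBS and, in TNF, 65.5% ± 2.51 (each the SD of 3 libraries, exact permutation p = 0.8). Of all group shares, only that of Defa28 did not overlap, with 0.0219% to 0.0336% in PBS and 0.0202%, 0.0034% and 0.00479% in TNF (exact permutation p = 0.1, the smallest possible). The summed share of the pseudogenes did not overlap either, with 0.118%, 0.129% and 0.128% in PBS and 0.0938%, 0.0402% and 0.0407% in TNF (exact permutation p = 0.1). The p-values of these shares are unadjusted, and 15 measures of composition were compared besides the 11 groups, so that no Benjamini-Hochberg adjusted value among them can be below 0.1.

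TNF replicate 1 was nearer to the PBS mean than TNF replicates 2 and 3 for 17 of the 26 tested members. Without it, 27 members could be tested and 10 passed an adjusted p of 0.05 in edgeR, 1 higher and 9 lower in TNF, against 14.5% of 13660 genes tested, 9.1% higher and 5.4% lower. This fit compares 3 PBS with 2 TNF libraries, and none of the 9 lower members passed in the same filtered edgeR fit with all 6. The 1 higher member was not tested in that fit of all 6, where it missed the filter. Some of these members passed in other fits of all 6 libraries, which are given apart. The median log2 fold change of the members was -0.62, against -0.01 over all genes. Altogether 9 members were higher and 18 lower.

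The 9 lower members were 4 protein-coding genes and 5 pseudogenes. The lowest value was that of Defa28, which fell by 2.95 on the log2 scale (SE 0.34, edgeR adjusted p = 0.000294). Its value over all 6 libraries was -0.99 (SE 0.79, edgeR adjusted p = 0.645). It was at 71.8, 66.2 and 84.4 CPM in PBS, 93.4 in TNF replicate 1, and 5.63 and 13.6 CPM in TNF replicates 2 and 3. Defa40 changed by -2.0 (SE 0.36, edgeR adjusted p = 0.00408), with 1410, 1261 and 1485 CPM in PBS, 2072 in TNF replicate 1, and 207 and 478 CPM in TNF replicates 2 and 3, and with all 6 libraries it had -0.59 (edgeR adjusted p = 0.762). For both genes TNF replicate 1 exceeded every PBS library and the other TNF libraries lay far below. Defa26, which groups with Defa40, had -1.44 (SE 0.34, edgeR adjusted p = 0.0168), from 1238, 1044 and 1131 CPM in PBS to 257 and 570 CPM in TNF replicates 2 and 3, and 1721 in TNF replicate 1. Defa39 had -1.57 (SE 0.38, edgeR adjusted p = 0.0183). Over all 6 libraries, Defa26 had -0.42 and Defa39 -0.24 (edgeR adjusted p = 0.802 and 0.916). Among these genes, Defa40, Defa26 and Defa39 have over 90% distinguishable 100-base windows, but 59.5%, 59.8% and 64.8% at 50 bases. Defa28 has 52.3% at 100 bases, most of the rest being shared with the pseudogene Defa-ps18, and 30.8% at 50.

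The lower pseudogenes followed the same libraries. Defa-ps18 had a log2 fold change of -2.70, Defa-ps1 of -2.36, Defa-ps6 of -2.30, Defa-ps16 of -1.68 and Defa-ps7 of -1.11, with edgeR adjusted p from 0.000306 to 0.0267. Their values over all 6 libraries were -0.99, -0.86, -0.78, -1.53 and -0.52, with edgeR adjusted p from 0.278 to 0.671. Defa-ps6 was at 178, 136 and 132 CPM in PBS, and fell to 20.7 and 39.2 CPM in TNF replicates 2 and 3. Defa-ps7, on the minus strand, has only distinguishable 100-base windows. It was at 60.3, 52.2 and 46.4 CPM in PBS, 62.6 in TNF replicate 1, and 20.8 and 27.9 CPM in TNF replicates 2 and 3. Except for Defa-ps16, which was low in all TNF libraries, TNF replicate 1 exceeded every PBS library for each of them.

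The 1 member called as higher was the pseudogene Defa-ps8. It passed the low-count filter only through the TNF libraries where it was high, so its call is no evidence of a rise, and its values are a description. Its counts were 0 in all PBS libraries and in TNF replicate 1, and 170 and 130 in TNF replicates 2 and 3. Against the limit that a count of 0 allows in a PBS library, 0.235 CPM, the lower of these values, 9.57 CPM on unscaled totals, was at least 40.7-fold higher. Every window of Defa-ps8 also occurs elsewhere, above all in Gm15313 (chr8:22129087-22130394), a gene outside the family that was picked after its values were seen, and Gm15313 had 0, 0, 0, 0, 231 and 121 counts in the same order of libraries. The source of these reads among the copies is therefore uncertain. Fits that ask for enough counts in 3 libraries leave Defa-ps8 out, whereas a fit of all 6 libraries without a low-count filter called it together with Defa-ps1, Defa-ps16, Defa-ps18 and Defa28, which were lower. These 5 of 37 members compare with 2.94% of all genes in that fit, 2.1% higher and 0.849% lower.

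**Figure D4:**
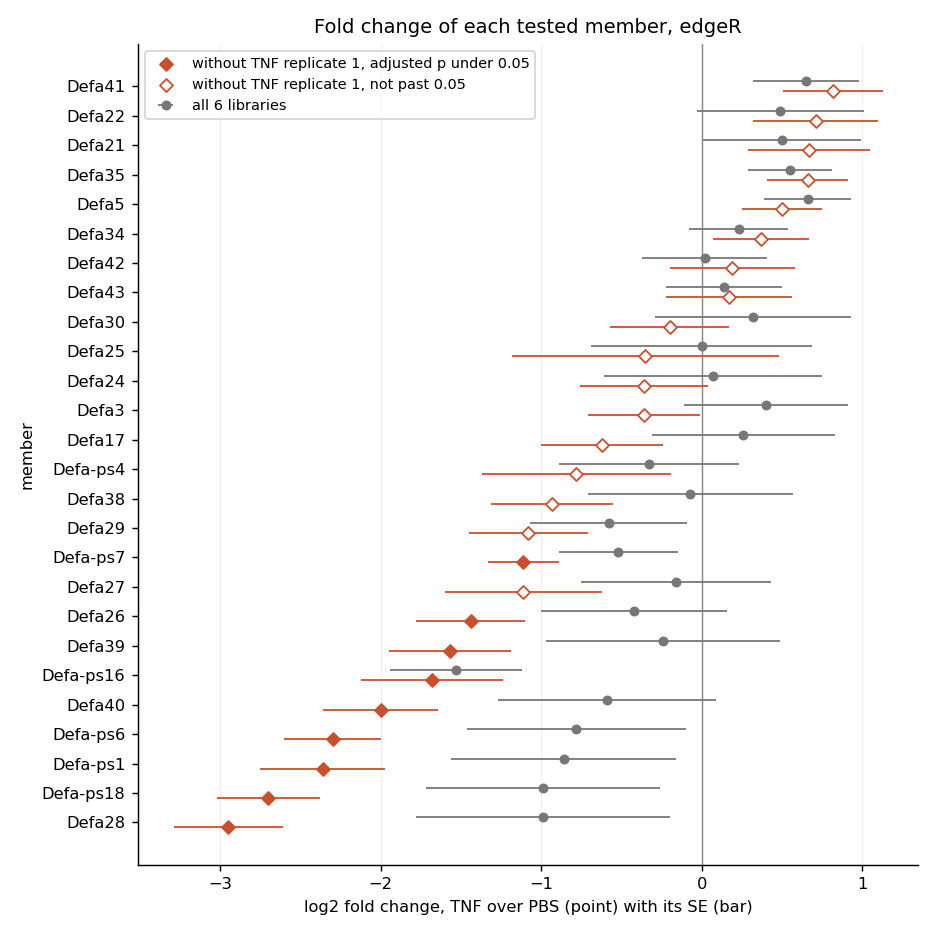
Log2 fold change of the 26 tested members in TNF over PBS (horizontal axis; bars are the SE of the edgeR fit), with all 6 libraries (grey circles) and without TNF replicate 1 (red diamonds, filled where the adjusted p is under 0.05). Diamonds run from -2.95 for Defa28 to 0.82 for Defa41, and for the lower members they lie well left of the grey circles.

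Besides Defa-ps8, higher values without TNF replicate 1 came from the Defa22 pair and the Defa35 group, classical members, and from Defa42 and Defa43. Within the Defa35 group, Defa41 departs from the classical pattern of 6 cysteine codons, with 7 in its last coding exon. Log2 fold changes were 0.82 (SE 0.31) for Defa41, 0.71 (SE 0.39) for Defa22, 0.67 (SE 0.38) for Defa21 and 0.66 (SE 0.25) for Defa35. Their edgeR adjusted p were 0.108, 0.267, 0.282 and 0.0983, so none passed. Over all 6 libraries they had 0.65, 0.49, 0.50 and 0.55. When TNF replicate 1 was left out and the library size was also set to the summed counts of the family, Defa22 rose by 0.98 and Defa21 by 0.97 on the log2 scale (edgeR adjusted p = 3.38e-05 and 0.000214). With all 6 libraries and the same scaling both had 0.61, and no member passed. In the family-scaled fit without TNF replicate 1, which reads members relative to the family, the median over all genes was 0.37. It called 11 members, 3 higher and 8 lower, against 8.89% of all genes (7.59% higher and 1.3% lower), and Defa38 (-0.62) was among the lower. A limma-voom fit was also run with sample weights, which are estimated from the spread of these same counts, not from a quality measure. With all 6 libraries kept, it called 9 members, against 11.5% of all genes (7.06% higher and 4.47% lower). These were Defa35 (0.80) and Defa41 (1.02) higher, and Defa40, Defa28, Defa-ps1, Defa-ps6, Defa-ps7, Defa-ps16 and Defa-ps18 lower.

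The lower values in TNF replicates 2 and 3 went with lower levels of other cell types' markers in the same libraries. Without TNF replicate 1, 6 of 8 enterocyte markers, 3 of 5 stem cell markers and 4 of 6 goblet cell markers passed as lower. Over all genes, 14.5% passed, and 5.4% as lower. The enterocyte markers Apoa1, Apoa4 and Lct passed the low-count filter only through PBS libraries where they were high. Their calls are therefore no evidence of a fall. Of 5 PC markers outside the family, 0 passed in either direction, with a median log2 fold change of -0.60. The lowest was Mptx2 (-1.32, edgeR adjusted p = 0.0702). Of 8 granule products listed apart, Mptx1 and Clps passed as lower and Reg3g and Reg3b as higher. Summed goblet cell markers were 4775 to 5067 CPM in PBS, against 4830, 3930 and 4169 CPM in TNF replicates 1 to 3. Of the remaining lists, 0 of 5 tuft cell markers and 0 of 2 tested immune markers passed in either direction, and 1 of 5 enteroendocrine markers, Tac1, passed as higher. No marker of these lists was at 0 in all libraries. Their part in the result was not tested.

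Along the 708.9 kb between the starts of Defa21 and Defa24, TNF replicates 2 and 3 differed. In TNF replicate 1, 22 of the 26 tested members were above their PBS mean, and they start between 0.0 and 708.9 kb. In TNF replicate 2, 5 of the 26 tested members were above their PBS mean, and all 5 start within the first 271.9 kb (Defa21, Defa35, Defa22, Defa41 and Defa5). That limit is the start of the last member above its PBS mean, so the 13 members further on lie below theirs by construction. Their log2 ratios to the PBS mean ran from -0.15 for Defa34, at 640.2 kb, to -3.72 for Defa28, at 557.4 kb. Members within the first 271.9 kb were below it as well, among them Defa38 (-1.36), Defa30 (-0.62), Defa-ps6 (-2.84) and Defa40 (-2.74). The 5 members above it belong to the Defa22 and Defa35 groups, so position and sequence cannot be told apart. For Defa21, Defa22, Defa41 and Defa5 the ratios (0.17, 0.12, 0.22 and 0.11) were below those of PBS replicate 1 (0.36, 0.36, 0.40 and 0.28). In TNF replicate 3, 10 members were above their PBS mean, and they start between 0.0 and 640.2 kb, with members below it in between. At 0.0, 136.7 and 166.0 kb, Defa21, Defa22 and Defa41 had ratios of 1.01, 1.09 and 1.22 in TNF replicate 3, and Defa30 among them, at 93.7 kb, had 0.09. The neighbours Defa-ps6, Defa-ps7 and Defa40, at 199.9, 206.5 and 224.2 kb, were lower than the PBS mean in both libraries, and Defa5, at 271.9 kb, was higher in both.

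**Figure D5:**
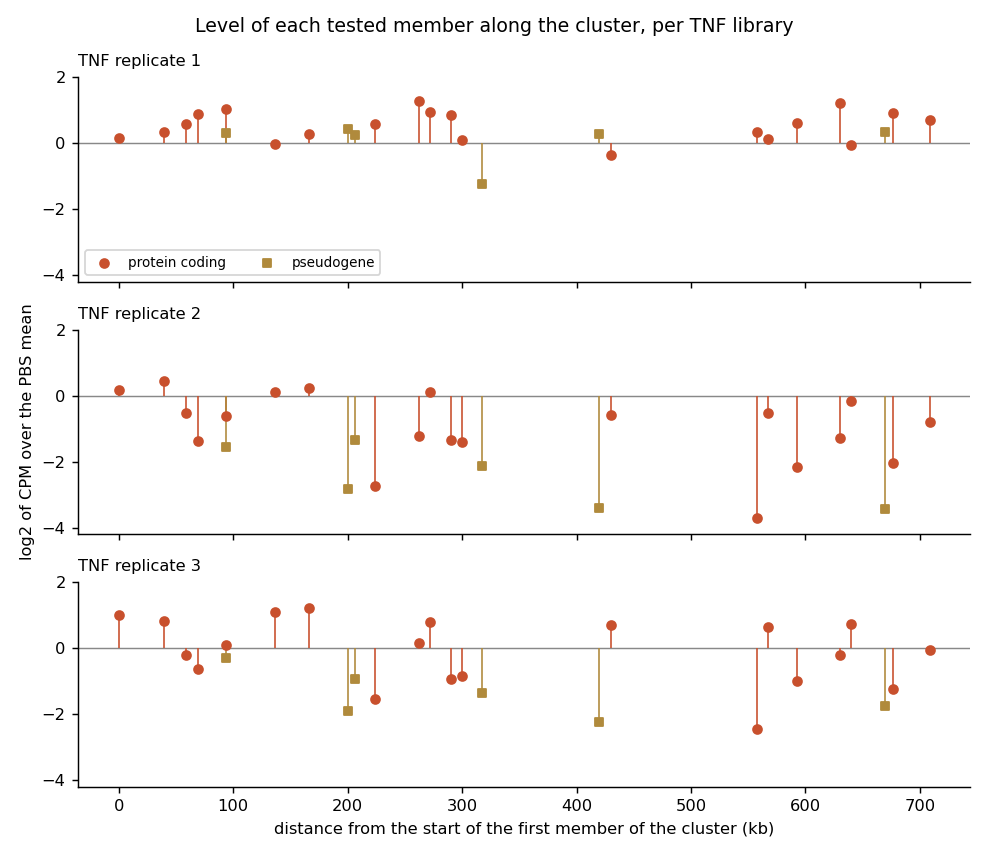
Log2 of the CPM of each tested member over its PBS mean (vertical axis) in each TNF library, against the distance of its start from that of Defa21, the first member of the cluster (horizontal axis, kb). In TNF replicate 1 most members lie between 0 and 1.28, and in TNF replicates 2 and 3 members far below 0 stand next to members near or above 0.

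The protein-coding members differ in the sequence around their start sites. The letters CTTTGAT, recognised by TCF factors, were searched on both strands from 250 bases before to 50 bases after the annotated start. They were found for 23 of the 28 members, against 3.37% of 21770 promoters of the same length. In 14 members they stood at 2 places, in each case 40 bases apart, as at -109 and -69 in Defa21, Defa41 and Defa3. In 9 members, Defa24 (-109) and Defa30 (-109) among them, they stood at 1 place, and in the 5 CRS members at none. TATAAA was found in 23 of 28 members, against 13.2% of promoters, and it was missing from Defa25, Defa26, Defa27, Defa28 and Defa40. Without TNF replicate 1, log2 fold changes were -0.62 to 0.82 in the 8 tested members with CTTTGAT at 2 places, of which 6 were higher, and -2.95 to -0.20 in the 7 with 1 place, of which 0 were higher. In the 5 CRS members they ran from -1.57 (Defa39) to 0.19 (Defa42), with 2 higher. These 2, Defa42 and Defa43, have no distinguishable window, and their values of 0.19 and 0.17 were smaller than their SE (0.39 each). Defa38 and Defa29 had -0.93 and -1.08. Members of a sequence group share most of their sequence and are not independent, so no test was made, and the Defa24 and Defa35 groups each hold members with 1 and with 2 places. The 6 higher members with 2 places all belong to the Defa22 and Defa35 groups. Within the Defa24 group, Defa17 and Defa3, with 2 places, had -0.62 and -0.36, and Defa24 and Defa30, with 1 place, had -0.36 and -0.20. Defa36 and Defa37, with 1 place in the Defa35 group, were not tested. The members without TATAAA all have CTTTGAT at 1 place.

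Genes that process, regulate or accompany α-defensins were read from the same fits. With all 6 libraries, 0 of 7 genes of processing and secretion, 0 of 12 regulators and 0 of 8 other granule products passed. Mmp7, which activates the precursors, was at 5576, 5967 and 6895 CPM in PBS, against 12883, 7463 and 13712 CPM in TNF. Its groups did not overlap, as for 16.9% of all genes tested, and the fit gave 0.89 on the log2 scale (SE 0.42, edgeR adjusted p = 0.429). In these lists the groups of Rab8a, Reg3g and Reg3b (higher in TNF) and of Xbp1, Hspa5 and Tcf7l2 (lower) did not overlap either. Tcf7l2 was at 56.4, 72.8 and 53.7 CPM in PBS, against 38.8, 40.2 and 34.9 CPM in TNF, lower in each TNF library (log2 fold change -0.68, SE 0.20, edgeR adjusted p = 0.285). The bactericidal lectin Reg3g had a log2 fold change of 3.14 (SE 0.80) and its relative Reg3b one of 4.31 (SE 0.99), each with an edgeR adjusted p of 0.27. These values came from TNF replicates 2 and 3. Reg3g was at 2813, 2441 and 2416 CPM in PBS, against 3012, 27754 and 36744 CPM in TNF. Reg3b was at 422, 539 and 641 CPM in PBS, against 663, 12028 and 19161 CPM in TNF. For both genes TNF replicate 1 was only slightly above the highest PBS library.

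Without TNF replicate 1, 14.5% of all genes passed, 9.1% as higher and 5.4% as lower. Of the 7 genes of processing and secretion, 2 passed as lower and 0 as higher. These were the protein-folding chaperone Hspa5 (-0.94, and -0.66 with all 6 libraries) and the disulfide isomerase Pdia4 (-1.26, and -0.92 with all 6). Of the 12 regulators, 3 passed as higher, namely Ctnnb1 (0.96, and 0.68 with all 6), which encodes β-catenin, Gfi1 (0.84 and 0.58), a factor of the secretory lineage, and Nupr1 (2.11 and 1.62). Bhlha15 (-2.03, and -1.12 with all 6), which drives secretory cell maturation, passed as lower. Of the 8 other granule products, Reg3g (3.68, and 3.14 with all 6 libraries) and Reg3b (4.89, and 4.31 with all 6) passed as higher. The pentraxin Mptx1 (-1.71, and -0.81 with all 6) and the pancreatic lipase cofactor Clps (-2.13, and -0.73 with all 6) passed as lower. Lyz1, the lysozyme of PC granules, had log2 fold changes of 0.17 with and 0.05 without TNF replicate 1.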

How the data were processed

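RNA from sorted PCs was purified with the Aurum Total RNA Mini kit and sequenced single-end on the Element AVITI. The authors deposited 1 table of raw counts per Ensembl gene. The submitters' processing notes name the build mm39, FastQC, Trimmomatic 0.39, STAR 2.7.10a and DESeq2. Which tool counted the reads, with or without strand, and how it treated multi-mapped reads is not given in the sources used here.

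Groups and replicate numbers came from the sample labels. Members were found by symbol in GENCODE M39 (GRCm39), in which 54749 identifiers matched. The members, gene lists and tests were chosen with earlier results of these data known. Low-count genes were removed with filterByExpr (a minimum count of 10 and a total of 15), and the others were tested in R 4.3.3 with edgeR 4.0.16 (quasi-likelihood, TMM factors, group as the only term, two-sided), with Benjamini-Hochberg adjustment over all genes and a threshold of 5%. SEs were derived from the F statistics (the absolute log2 fold change over the root of F), and CPM uses TMM-scaled library sizes. The test was checked on simulated counts with the same dispersion for every gene and library. No simulated library stood apart, so the check does not cover that feature of these data. Shares were compared with exact permutation tests (scipy 1.17.1), and sequences were aligned with Biopython 1.88. Alternatives included DESeq2 1.42.0 and limma 3.58.1.

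The text names the major and middle members, each member past 5% in any fit, and the highest and lowest of the others; other members were named for their sequence or position after values were seen.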

Additional observations from a re-analysis of the deposited data

How the results depend on the processing

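With all 6 libraries, 0 members passed 5% in edgeR under RLE, upper-quartile or library-size scaling, scaling without genes above 1% of counts or to the family, a mean CPM of at least 5, a 1% threshold, merged near-identical members, the replicate block, or in limma-voom. Without a low-count filter 5 passed, in DESeq2 1, and with sample weights 9 (added after seeing the data). Leaving out a library gave 0 to 10, and TNF replicate 1 was the library whose loss gave 10, also with near-identical members merged (10), or 11 with the library size set to the family (both added after seeing the data). The cause was not tested. Library size alone shifted the median of all genes to -0.11, and scaling to the family without TNF replicate 1 to 0.37.

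The family total turned to -0.07 under library size alone and -0.02 with sample weights, and ran from -0.29 (without TNF replicate 1) to 0.39 over left-out libraries. The family share differed by -5.97 to 2.52 points (without TNF replicates 1 and 2 in turn), and the effective number by -0.132 to 0.188. By Shannon entropy the effective number differed by -0.166. Classing members by all 6 libraries moved Defa21 into the major class and turned the difference of that class to 1.22 points and of the middle class to -0.827.

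No named member passed 5% under a setting that changed its sign. Under library size alone, upper-quartile factors, factors without genes above 1% of counts, no filter and limma-voom, Defa25 had -0.18, -0.04, -0.04, -0.03 and -0.08, and Defa42 -0.11, -0.04, -0.02, -0.02 and -0.13. Defa25 also had -0.01 with RLE factors and in DESeq2, -0.08 scaled to the family and -0.07 with sample weights. Defa24 had -0.12, -0.06, -0.02 and -0.12 under library size alone, scaling to the family, limma-voom and sample weights. Defa43 had -0.01 under library size alone and in limma-voom. Defa17 had 0.00 scaled to the family and -0.04 with sample weights. With libraries left out singly under TMM scaling, the ranges were -0.35 to 0.41 for Defa25, -0.93 to 0.28 for Defa38 and -0.78 to 0.01 for Defa-ps4. They were -0.20 to 0.60 for Defa30, -0.36 to 0.79 for Defa3, -1.11 to 0.18 for Defa27 and -0.47 to 0.22 for Defa42. Defa43 had -0.17 to 0.36, Defa17 -0.62 to 0.64, Defa34 -0.09 to 0.44, Defa39 -1.57 to 0.17 and Defa24 -0.36 to 0.34. Scaled to the family without TNF replicate 1, Defa42, Defa43 and Defa34 had 0.42, 0.40 and 0.66, and Defa3 and Defa17 -0.14 and -0.34.

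The replicate numbers did not pair libraries, since same-numbered libraries correlated at -0.01, -0.07 and 0.03 in their deviations from the group means. The replicate block gave 0 calls and a family total of 0.01, and turned Defa42 to -0.07, Defa24 to -0.05 and Defa17 to -0.02. It leaves the differences of class shares as they were. Depth limits the scarce members, and shared sequence limits members without distinguishable windows.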
